A study of Homo sapiens with 8 samples.

Results

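The genes described here are 32 listed targets and partners of ATF4, covering amino acid synthesis, amino acid uptake and the stress response that ATF4 drives. A listed gene was a member when it appeared in the gene table of at least 1 of the 2 cell lines. Of the 32 genes, 31 were found among the 12715 genes in either table: all 31 in the BCPAP table and 30 in the CAL-62 table. NUPR1 was in neither table, and ALDH1L2 was listed in BCPAP only.

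RNA was sequenced after oligo(dT) selection from CAL-62 and BCPAP, established human thyroid carcinoma cell lines, in 8 libraries. CAL-62 cells, grown in DMEM with 20% serum, received THZ1 at 100 nM for 6 h (2 libraries) or the vehicle DMSO (2 libraries). BCPAP cells, grown in RPMI with 10% serum and penicillin/streptomycin, received the same dose of THZ1 for 6 h (2 libraries) or DMSO (2 libraries). THZ1 binds covalently to CDK7, a TFIIH kinase that phosphorylates RNA polymerase II, and blocks it. No genetic change was made in either line, and a difference between the lines cannot be told apart from a difference between their media.

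ATF4 is a basic leucine zipper transcription factor at the end of the integrated stress response. When eIF2-alpha is phosphorylated by one of its kinases, most translation slows while the ATF4 mRNA is translated more, and ATF4 pairs with C/EBP-family partners on composite C/EBP-ATF response elements. Its targets make and import amino acids, charge tRNAs and, under lasting stress, include DDIT3, TRIB3 and CHAC1, which are tied to cell death or feedback.

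Values are the deposited RPKM-type values, in which reads are scaled to gene length and to a total per library. That total behaves like a size factor and is not the number of reads in the library. The 8 libraries held 16680750 to 19987389 reads in listed genes, and the median gene had 399 to 730 reads. Genes are in a table only where the mean of that line's DMSO libraries exceeded about 1, so a gene near 0 under DMSO and present only under THZ1 would be missed. The thyroid lineage factor PAX8 was listed in both lines, NKX2-1 and FOXE1 in BCPAP only, and TG, TSHR and SLC5A5, genes of differentiated thyroid cells, in neither. Epithelial markers were listed for 5 of 6 genes in CAL-62 and 3 of 6 in BCPAP; of the other lists, only CD68 of 6 blood markers, COL1A1 of 7 fibroblast markers and none of 5 endothelial markers were listed. In CAL-62, PAX8 was 5.20 and 29.8 in the THZ1 libraries, against 91.1 and 117 in the DMSO libraries, and fell by 2.92 on the log2 scale (SE 0.641, adjusted p = 0.0469, limma with Benjamini-Hochberg adjustment). That test shares its spread with BCPAP, and with CAL-62 fitted on its own 4 libraries 0 of 11240 genes were called. The 5 epithelial markers of CAL-62 summed to 2277 to 2915 in the THZ1 libraries, against 1360 to 1691 in the DMSO libraries. All 5 had positive log2 differences with the deposited scaling (median 0.64). Of these 3 had an unadjusted p under 0.05 and 0 were called in limma's test, against 30.1% and 4.62% of all genes tested. CD68 was 25.0 to 26.3 under THZ1, against 13.2 to 16.3 under DMSO, with a log2 difference of 0.77 (adjusted p = 0.0742, limma). In BCPAP the 3 epithelial markers summed to 1233 to 2038 under THZ1, against 1231 to 1579 under DMSO. The part of these markers in the results below was not tested.

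Promoters are shown for members whose promoter window held the C/EBP-ATF core, the composite element that ATF4 and its partners bind. The core was searched as TGATGNAA on both strands of RefSeq promoter windows on GRCh38.p14, each running from 250 bases before to 50 bases after a gene start. A window was matched for 26 of the 32 listed genes, and 9 of those (34.6%) held the core, against 4.46% of 27305 genes with a window. A gene counted when any of its windows held the core, so these shares depend on the number of windows per gene. The genes were listed as targets and partners of ATF4, so the higher share is not independent of how they were chosen. The 9 genes were CHAC1, CEBPG, ASNS, MTHFD1L, SLC3A2, SLC7A1, SLC1A5, SLC1A4 and SLC38A1. The 5 with the largest THZ1 differences in CAL-62 are printed with the core in capitals, and a core on the opposite strand reads TTNCATCA.
CHAC1: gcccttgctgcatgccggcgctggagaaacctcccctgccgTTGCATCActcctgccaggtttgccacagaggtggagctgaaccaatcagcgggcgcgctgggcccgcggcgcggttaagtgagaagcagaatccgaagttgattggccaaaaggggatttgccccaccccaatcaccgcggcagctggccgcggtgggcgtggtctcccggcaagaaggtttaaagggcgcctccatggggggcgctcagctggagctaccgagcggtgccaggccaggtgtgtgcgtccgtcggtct
CEBPG: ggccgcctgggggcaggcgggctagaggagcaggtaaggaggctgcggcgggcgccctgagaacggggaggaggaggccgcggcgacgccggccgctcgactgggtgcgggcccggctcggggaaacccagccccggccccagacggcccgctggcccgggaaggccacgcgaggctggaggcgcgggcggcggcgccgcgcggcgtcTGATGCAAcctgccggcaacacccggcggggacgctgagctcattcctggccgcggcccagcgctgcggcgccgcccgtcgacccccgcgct
ASNS: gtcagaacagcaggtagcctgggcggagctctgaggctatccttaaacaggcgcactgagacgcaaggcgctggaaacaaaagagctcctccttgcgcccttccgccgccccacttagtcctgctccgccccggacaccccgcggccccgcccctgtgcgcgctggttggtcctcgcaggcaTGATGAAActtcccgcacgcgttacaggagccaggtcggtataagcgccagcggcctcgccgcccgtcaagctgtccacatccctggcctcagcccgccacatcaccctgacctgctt
MTHFD1L: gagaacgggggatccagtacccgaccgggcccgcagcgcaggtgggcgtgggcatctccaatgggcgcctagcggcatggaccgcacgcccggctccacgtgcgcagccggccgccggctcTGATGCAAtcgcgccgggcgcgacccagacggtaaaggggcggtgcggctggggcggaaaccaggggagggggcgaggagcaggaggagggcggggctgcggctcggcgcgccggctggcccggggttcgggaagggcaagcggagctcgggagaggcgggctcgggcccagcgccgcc
SLC3A2: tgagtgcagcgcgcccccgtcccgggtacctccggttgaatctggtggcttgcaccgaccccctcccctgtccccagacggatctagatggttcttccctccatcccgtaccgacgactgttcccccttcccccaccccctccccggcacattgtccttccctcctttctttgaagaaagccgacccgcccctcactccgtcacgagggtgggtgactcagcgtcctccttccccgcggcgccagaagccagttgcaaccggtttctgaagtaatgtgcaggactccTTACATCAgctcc
In CHAC1 (chr15:40953221-40953520, plus strand) the core began at position -209 from the gene start, and in CEBPG (chr19:33373863-33374162, plus strand) at -42. In ASNS (chr7:97872359-97872658, minus strand) it began at -68, in MTHFD1L (chr6:150866236-150866535, plus strand) at -129, and in SLC3A2 (chr11:62881449-62881748, plus strand) 37 bases after the start. The first window with a match is printed for each gene. The core was in 1 of 1 window of CHAC1, 1 of 2 of CEBPG and of ASNS, 3 of 4 of MTHFD1L and 1 of 3 of SLC3A2. Each match describes letters in the window and is not a measured binding site.

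The DMSO libraries of CAL-62 differed from each other more in these genes than in the transcriptome as a whole. On the scale of log2(value + 1), 14 of 30 members were more than 1 unit higher in replicate 2 than in replicate 1, against 2.57% of the 11513 listed genes. The median difference between these replicates was 0.87 for the members and -0.03 for all genes. DDIT4, an inhibitor of mTORC1 signalling, had 35.2 times the value in replicate 2 and ranked 2 of 11513 for this difference. CHAC1, with a ratio of 10.5, ranked 5, and CEBPB, with a ratio of 7.89, ranked 7; TRIB3, STC2 and DDIT3 ranked 18, 21 and 24. In the THZ1 libraries of CAL-62 the median difference of the members was 0.55, with 6 of 30 over 1 unit, against 4.49% of all genes. In BCPAP the medians were -0.16 under THZ1 and -0.22 under DMSO, with 0 and 1 of 31 members over 1 unit. Most differences that use the CAL-62 DMSO libraries are therefore also given without replicate 2, and many THZ1 differences in CAL-62 also without replicate 1. Replicate 2 was also the higher library for 25 of 30 members under THZ1 in CAL-62. Leaving out only the DMSO library thus leaves the groups unequal in replicate number. Whether the replicates are separate cultures is not stated in the labels, so the spread behind each p-value may be technical.

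**Figure D1:**
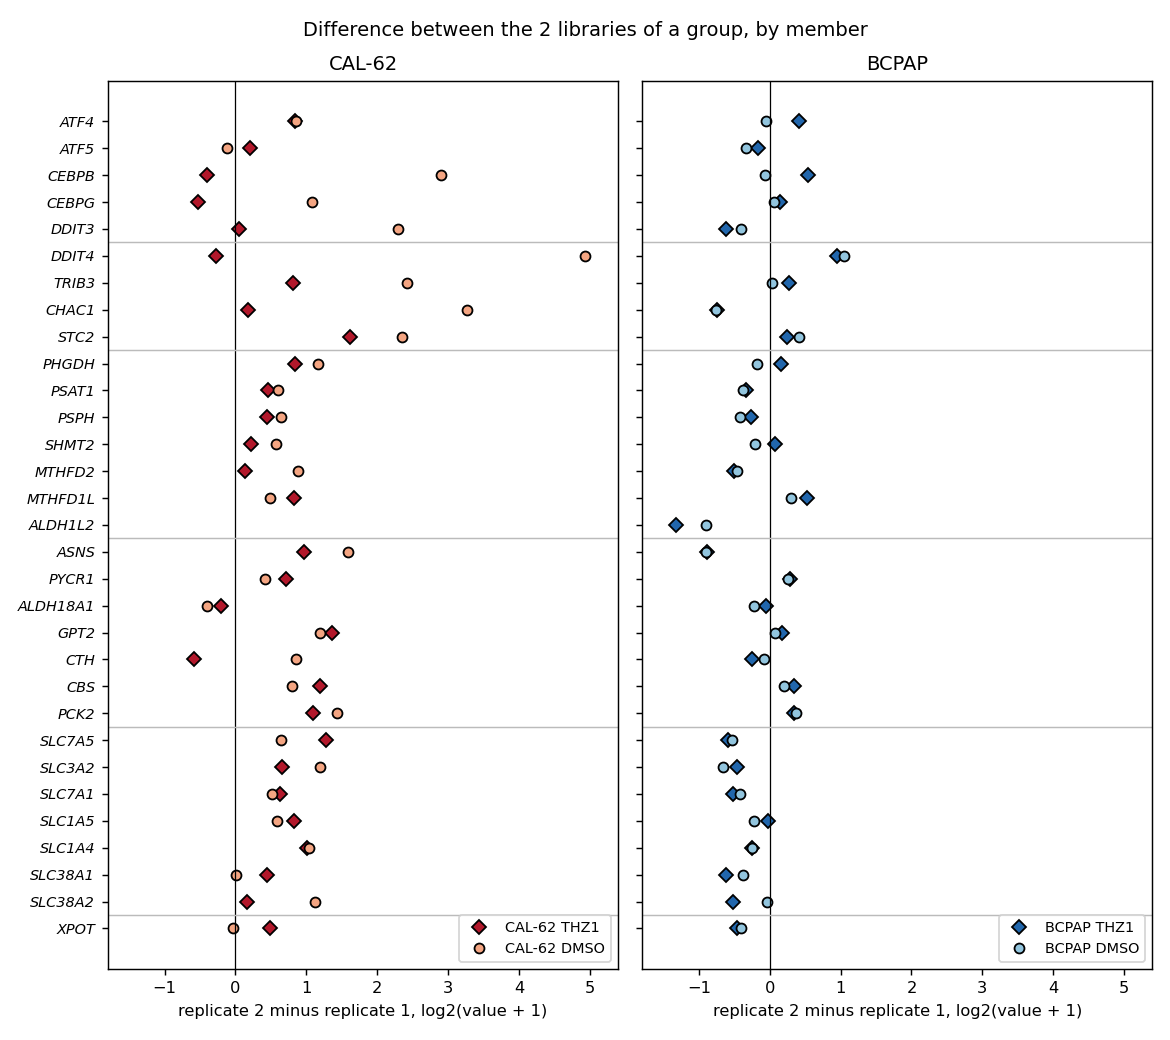
Replicate 2 minus replicate 1 for each member, in log2(value + 1), with CAL-62 on the left and BCPAP on the right; diamonds are THZ1 and circles DMSO, and grey lines part the role groups. The stress genes reach 4.93 (DDIT4) in CAL-62 DMSO cells, and the BCPAP points stay between -1.33 and 1.05.

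The first comparison asked how THZ1 acted on these genes in CAL-62. The stress genes DDIT4, CHAC1, DDIT3, TRIB3 and CEBPB had lower values in both THZ1 libraries than in either DMSO library, while most synthesis enzymes had higher mean values. In limma's test across all genes (log2(value + 1), Benjamini-Hochberg adjustment, called at an adjusted p under 0.05), 0 of 30 members were called, against 4.62% of the 11362 genes tested (0.581% higher and 4.04% lower). At an unadjusted p under 0.05 there were 6 members, 5 lower (CHAC1, DDIT3, DDIT4, TRIB3 and SLC38A2) and 1 higher (ALDH18A1), where 30.1% of all genes passed, 15.7% lower and 14.4% higher. The libraries of the groups did not overlap for 3 members that were higher under THZ1, against 30.1% of all genes, and for 7 that were lower, against 27.4%. The median log2 difference was -0.18 over the members and 0.03 over all genes tested. Over the members it was 0.14 without replicate 2 and -0.47 without replicate 1 of the DMSO cells. Without replicate 1 of the THZ1 cells it was 0.10, and without replicate 2 of those cells -0.48. In bulk RNA, fewer cells of a kind and less RNA per cell cannot be told apart.

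The scaling of the libraries sets the level of these differences. In CAL-62 the totals behind the deposited values were 13804955 and 18698403 under THZ1, against 21580812 and 23563592 under DMSO. Reads in listed genes were 16680750 and 19987389 under THZ1, against 18776869 and 19327017 under DMSO. The deposited scaling thus places THZ1 values higher against DMSO than a scaling to those reads would, which was not tested. Against ribosomal protein genes as the reference, the median of all genes in CAL-62 was -0.78 and all 30 members were negative, with a median of -1.12. With upper-quartile scaling these medians were -0.11 and -0.35. Signs in the rest of the text are those of the deposited scaling, in which a typical gene is level.

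Among the 5 regulators, 4 had negative log2 differences in CAL-62 and ATF5 a positive one, with a median of -0.67. ATF4 itself was 82.3 and 149 in the THZ1 libraries, against 121 and 219 in the DMSO libraries. These groups overlapped, replicate 2 was the higher library in each, and the log2 difference was -0.55 ± 0.365 (SE, adjusted p = 0.340, limma). It was -0.13 without replicate 2 and -0.98 without replicate 1 of the DMSO cells. DDIT3, which encodes the C/EBP-family factor CHOP, was 2.15 and 2.27 under THZ1, against 8.89 and 47.3 under DMSO. Both THZ1 libraries were below both DMSO libraries, and the log2 difference was -2.77 ± 0.642 (adjusted p = 0.0522, limma). It was -3.91 without replicate 1 of the DMSO cells. Over the alternative settings that adjusted p ran from 0.00909 to 0.181, and without replicate 2 of the DMSO cells the difference was -1.62. DDIT3 shares 62 exon bases with MARS on the opposite strand in GENCODE release 29, and the strand setting of the counting is not given in the sources used here.

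CEBPB, a C/EBP factor that can pair with ATF4, was 14.0 and 10.3 under THZ1, against 14.7 and 116 under DMSO. The THZ1 libraries lay close to replicate 1 of the DMSO cells. The log2 difference of -1.72 ± 0.774 (adjusted p = 0.181, limma) was -0.27 without replicate 2 and -3.17 without replicate 1 of those cells. CEBPG, another partner of ATF4, was 13.2 and 8.80 under THZ1, against 11.9 and 26.2 under DMSO. Its groups overlapped, with a log2 difference of -0.67 ± 0.361 (adjusted p = 0.251, limma). It was -0.13 without replicate 2 and -1.20 without replicate 1 of the DMSO cells. ATF5, a relative of ATF4, was 31.2 and 35.9 under THZ1, against 24.9 and 22.8 under DMSO, with no overlap and a log2 difference of 0.47 ± 0.209 (adjusted p = 0.176, limma); against ribosomal protein genes its sign turned. ATF5 shares 563 exon bases with NUP62 and 75 with IL4I1 on the opposite strand.

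**Figure D2:**
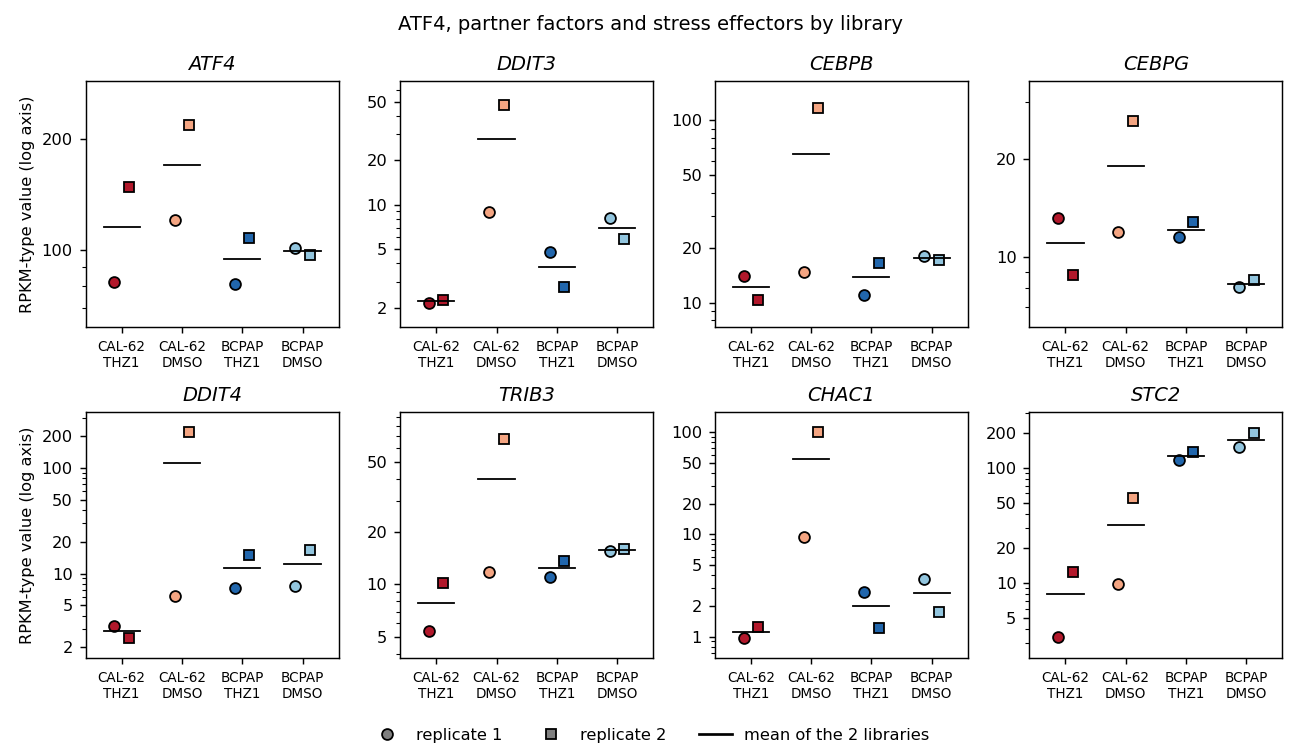
RPKM-type values on log axes for ATF4, its partner factors and the stress effectors in each of the 8 libraries; circles are replicate 1, squares replicate 2 and bars the mean of both. In CAL-62 DMSO cells replicate 2 of DDIT4 reaches 218 against 6.19 in replicate 1, and CHAC1 is 0.975 and 1.23 in the THZ1 libraries.

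The 4 stress effectors all had negative log2 differences in CAL-62, with a median of -2.59, and -0.76 without replicate 2 of the DMSO cells. CHAC1, an enzyme that breaks down glutathione, was 0.975 and 1.23 under THZ1, against 9.53 and 100.0 under DMSO. These values rest on 21 and 36 reads under THZ1, against 321 and 3677 reads under DMSO. Every THZ1 library was below every DMSO library, including the lower DMSO library. The log2 difference of -3.96 ± 0.893 ranked 1 of 11362 from the lowest, and its adjusted p of 0.05001 lay just above the threshold (limma). Without replicate 2 of the DMSO cells it was -2.33 and without replicate 1 it was -5.59, and the adjusted p over all alternatives ran from 0.00852 to 0.149.

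DDIT4 was 3.18 and 2.47 under THZ1, against 6.19 and 218 under DMSO. Its groups did not overlap, but most of the log2 difference of -3.38 ± 1.31 (adjusted p = 0.136, limma) came from 1 library. It was -0.92 without replicate 2 and -5.84 without replicate 1 of the DMSO cells. TRIB3, a pseudokinase that feeds back on ATF4, was 5.41 and 10.2 under THZ1, against 11.8 and 67.7 under DMSO. Both THZ1 libraries were lower, the higher of them close to the lower DMSO library. The log2 difference was -1.81 ± 0.676 (adjusted p = 0.126, limma), -0.60 without replicate 2 and -3.02 without replicate 1 of the DMSO cells. STC2, a secreted stanniocalcin, was 3.43 and 12.5 under THZ1, against 9.92 and 54.5 under DMSO, and its groups overlapped. Its log2 difference was -1.67 ± 0.749 (adjusted p = 0.180, limma), -0.50 without replicate 2 and -2.84 without replicate 1 of the DMSO cells.

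Of the 6 serine, glycine and one-carbon enzymes tested in CAL-62, 5 had positive log2 differences (median 0.44); 4 were positive with upper-quartile scaling and 0 against ribosomal protein genes. PHGDH, which opens the serine pathway, was 75.1 and 135 under THZ1, against 44.0 and 99.6 under DMSO, and the groups overlapped. PSAT1, the next enzyme, was 127 and 175 under THZ1, against 89.3 and 136 under DMSO, also with overlap. SHMT2, the mitochondrial enzyme that turns serine into glycine, was 134 and 157 under THZ1, against 84.5 and 126 under DMSO. SHMT2 alone of these 6 had no overlap between groups, with a log2 difference of 0.49 ± 0.239 (adjusted p = 0.212, limma), or 0.77 without replicate 2 of the DMSO cells. The differences of PHGDH and PSAT1 were 0.60 ± 0.405 and 0.44 ± 0.286 (adjusted p = 0.352 and 0.336, limma), and 1.18 and 0.74 without that library. Without replicate 1 of the DMSO cells the differences were 0.015 for PHGDH, 0.13 for PSAT1 and 0.20 for SHMT2. PSPH, which completes serine synthesis, was 10.2 and 14.2 under THZ1, against 11.6 and 18.6 under DMSO. Its difference was -0.26 ± 0.308 (adjusted p = 0.590, limma). It turned to 0.056 without replicate 2 of the DMSO cells and was -0.58 without replicate 1. MTHFD2 and MTHFD1L, folate enzymes of the mitochondrion, had differences of 0.13 and 0.45 with overlapping groups; MTHFD2 shares 1324 exon bases with SLC4A5 on the opposite strand.

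Among 7 enzymes for asparagine, proline, alanine and cysteine and PCK2, 6 had positive log2 differences in CAL-62 (median 0.25); 5 were positive with upper-quartile scaling and 0 against ribosomal protein genes. ASNS, which makes asparagine from aspartate and glutamine, was 49.7 and 97.8 under THZ1, against 27.8 and 85.5 under DMSO. Replicate 2 was the higher library in both groups, so they overlapped, and the log2 difference was 0.51 ± 0.594 (adjusted p = 0.594, limma). It was 1.30 without replicate 2 and -0.29 without replicate 1 of the DMSO cells. ALDH18A1, the first enzyme of proline synthesis from glutamate, was 81.7 and 70.7 under THZ1, against 56.5 and 42.5 under DMSO. Both THZ1 libraries were above both DMSO libraries, with a log2 difference of 0.62 ± 0.214 (adjusted p = 0.105, limma). It was 0.42 without replicate 2 and 0.82 without replicate 1 of the DMSO cells. PYCR1, the last enzyme of that route, was 48.7 and 80.5 under THZ1, against 36.6 and 49.3 under DMSO. Its groups overlapped narrowly and the difference was 0.55 ± 0.292 (adjusted p = 0.244, limma). It was 0.76 without replicate 2 and 0.34 without replicate 1 of the DMSO cells. CTH, CBS, PCK2 and GPT2 had differences between -0.02 and 0.25. CTH was at the low end of the members, with 2.57 and 1.37 under THZ1, against 1.02 and 2.64 under DMSO.

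All 7 amino acid transporters had negative log2 differences in CAL-62 (median -0.40), also with upper-quartile scaling and against ribosomal protein genes. Without replicate 2 of the DMSO cells, 4 of the 7 were positive (median 0.05). SLC38A2, a sodium-coupled transporter of small neutral amino acids, was 39.96 and 45.0 under THZ1, against 59.0 and 129 under DMSO. It was the only transporter without overlap, with a log2 difference of -1.03 ± 0.358 (adjusted p = 0.109, limma). That difference was -0.47 without replicate 2 and -1.59 without replicate 1 of the DMSO cells. SLC7A5, which forms the large neutral amino acid transporter LAT1 with SLC3A2, was 91.2 and 223 under THZ1, against 151 and 236 under DMSO. SLC3A2 was 72.9 and 116 under THZ1, against 81.2 and 187 under DMSO. Replicate 2 was higher in each of these groups, and the differences were -0.40 ± 0.448 and -0.42 ± 0.435 (adjusted p = 0.579 and 0.544, limma). Without replicate 2 of the DMSO cells they were -0.077 for SLC7A5 and 0.18 for SLC3A2, and without replicate 1 they were -0.72 and -1.01. The near-identical copies SLC7A5P1 and SLC7A5P2 held 14 to 136 reads in CAL-62 libraries, against 5721 to 25214 reads for SLC7A5, so reads could be split among them. XPOT, which exports tRNAs from the nucleus, was 42.5 and 60.0 under THZ1, against 63.0 and 61.4 under DMSO, with no overlap and a difference of -0.29 ± 0.262 (adjusted p = 0.477, limma).

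**Figure D3:**
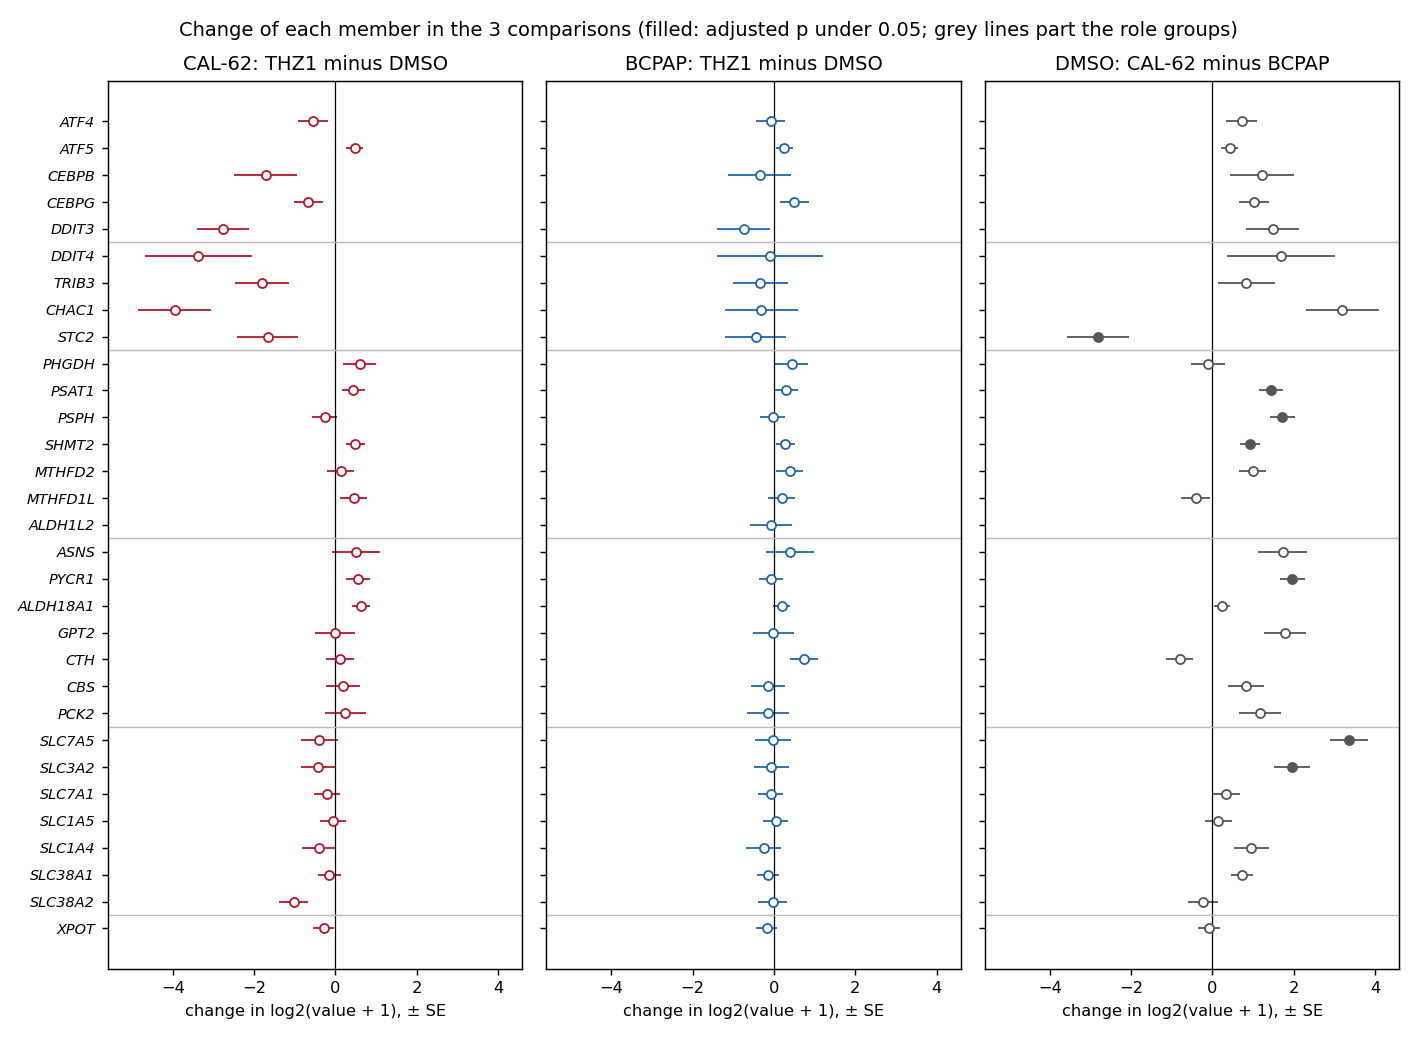
Log2 difference ± SE of each member on the log2(value + 1) scale for THZ1 minus DMSO in CAL-62 (left), THZ1 minus DMSO in BCPAP (middle) and CAL-62 minus BCPAP under DMSO (right); filled points had an adjusted p under 0.05 in limma's test. No THZ1 point is filled, 7 points are filled on the right, and the positive enzyme values of CAL-62 turn negative against ribosomal protein genes.

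In BCPAP the same dose of THZ1 gave log2 differences between -0.75 and 0.74. limma called 0 of 31 members, against 0% of the 11743 genes tested. No member had an unadjusted p under 0.05, where 4.01% of all genes did. The groups did not overlap for 6 members that were higher under THZ1, against 21.9% of all genes, and for 5 that were lower, against 16.4%. The median log2 difference was -0.06 over the members and 0.07 over all genes. A count of 0 does not show that the members held their level, since the lowest adjusted p of any gene in this line was 0.932.

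The largest differences in BCPAP were those of DDIT3 and CTH. DDIT3 was 4.79 and 2.78 under THZ1, against 8.06 and 5.81 under DMSO, with no overlap and a log2 difference of -0.75 ± 0.642 (adjusted p = 0.932, limma). CTH, which makes cysteine from cystathionine, was 7.72 and 6.30 under THZ1, against 3.92 and 3.63 under DMSO. Both THZ1 libraries were above both DMSO libraries, with a difference of 0.74 ± 0.339 (adjusted p = 0.932, limma). CEBPG was 11.5 and 12.8 under THZ1, against 8.06 and 8.46 under DMSO, without overlap. PHGDH was 92.7 and 104 under THZ1, against 76.7 and 67.9 under DMSO, also without overlap. Their differences were 0.50 ± 0.361 and 0.44 ± 0.405 (adjusted p = 0.932 each, limma). For genes listed in both lines the SE comes from 1 fit over all 8 libraries and is the same in CAL-62 and BCPAP. It therefore also carries the replicate spread of CAL-62 and is not the spread of the BCPAP libraries alone.

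The stress effectors of BCPAP were negative in 4 of 4, with a median log2 difference of -0.32. CHAC1 was 2.73 and 1.23 under THZ1, against 3.66 and 1.74 under DMSO, and DDIT4 was 7.35 and 15.1 under THZ1, against 7.58 and 16.8 under DMSO. In both genes the replicates differed more than the treatments. STC2 was 117 and 138 under THZ1, against 150.3 and 199.6 under DMSO, without overlap and with a difference of -0.45 ± 0.749 (adjusted p = 0.947, limma). TRIB3 was 11.1 and 13.6 under THZ1, against 15.5 and 16.0 under DMSO, and CEBPB was 11.0 and 16.5 under THZ1, against 18.0 and 17.2 under DMSO. Both were lower in each THZ1 library, with differences of -0.33 ± 0.676 and -0.35 ± 0.774 (adjusted p = 0.960 and 0.963, limma).

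ATF4 and ASNS overlapped between treatments in BCPAP. ATF4 was 81.3 and 108 under THZ1, against 101 and 97.4 under DMSO, with a log2 difference of -0.08 ± 0.365 (adjusted p = 0.979, limma). ASNS was 26.2 and 13.7 under THZ1, against 19.6 and 10.1 under DMSO, with a difference of 0.40 ± 0.594 (adjusted p = 0.941, limma). In ASNS replicate 1 was the higher library of both groups, the reverse of CAL-62. The 7 serine, glycine and one-carbon enzymes had a median difference of 0.28 with 5 positive, and 4 positive against ribosomal protein genes. The transporters had a median of -0.06, between -0.25 (SLC1A4) and 0.04 (SLC1A5). ALDH1L2, a mitochondrial folate enzyme, was near the lower limit of the table, with 2.37 and 0.344 under THZ1, against 2.05 and 0.631 under DMSO.

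The difference of the THZ1 response between CAL-62 and BCPAP was tested as an interaction. limma called 0 of 30 members, against 0% of the 10653 genes tested. At an unadjusted p under 0.05 there was 1 member, CHAC1, which was negative, where 5.28% of all genes passed and 4.81% did so with a negative value. The interaction of CHAC1 was -3.65 ± 1.26 on the log2 scale and ranked 1 of 10653 from the lowest, with an unadjusted p of 0.0208 and an adjusted p of 0.834 (limma). DDIT4 and DDIT3 had interactions of -3.28 ± 1.86 and -2.02 ± 0.908 (adjusted p = 0.843 each, limma). Without replicate 2 of the CAL-62 DMSO cells the interactions were -2.02 for CHAC1, -0.82 for DDIT4 and -0.87 for DDIT3. Without replicate 1 of those cells they were -5.28, -5.75 and -3.16. The median interaction was -0.14 over the members and -0.01 over all genes. Over the members it was 0.15 without replicate 2 and -0.64 without replicate 1 of the CAL-62 DMSO cells. These values share the CAL-62 DMSO libraries with the CAL-62 comparison.

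Under DMSO most members had higher values in CAL-62 than in BCPAP. limma called 7 of 30 members, against 14.4% of the 10649 genes tested. Of these, 6 were higher in CAL-62 (SLC7A5, SLC3A2, PYCR1, PSPH, PSAT1 and SHMT2), against 6.52% of all genes, and STC2 was lower, against 7.86%. The median log2 difference was 0.94 over the members, with 24 of 30 positive, and 0.02 over all genes. Without replicate 2 of the CAL-62 DMSO cells the median was 0.42 with 20 of 30 positive, and without replicate 1 it was 1.47 with 26 positive. Without replicate 1 of the BCPAP DMSO cells the median was 0.97 with 25 positive, and without replicate 2 it was 0.86 with 24 positive. Which members were called changed with the DMSO library left out, as did the share of all genes called. The libraries of the lines did not overlap for 18 members that were higher in CAL-62, against 33.3% of all genes, and for 3 that were lower, against 33.3%. For limma's test the libraries of both lines were first brought to 1 scale by median-of-ratios factors, which lay between 0.964 and 1.05. The overlaps, the values in each library and the ratio of means below are those of the deposited scaling.

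SLC7A5 had the largest difference of the members. It was 151 and 236 in CAL-62 DMSO cells, against 21.3 and 14.4 in BCPAP DMSO cells, and the ratio of the means was 10.8. Its log2 difference was 3.36 ± 0.462 (adjusted p = 0.00531, limma), with adjusted p between 0.00133 and 0.0527 over the alternatives. SLC3A2, the heavy chain of the pair, was 81.2 and 187 in CAL-62, against 39.5 and 24.5 in BCPAP, with a difference of 1.96 ± 0.445 (adjusted p = 0.0279, limma). Without replicate 2 of the CAL-62 cells the differences were 3.02 for SLC7A5 and 1.35 for SLC3A2. Every CAL-62 library was above every BCPAP library for both genes. Of the other transporters, SLC38A1, SLC1A4 and SLC7A1 had differences of 0.72, 0.96 and 0.34, SLC1A5 one of 0.15 and SLC38A2 one of -0.23, and none was called.

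**Figure D4:**
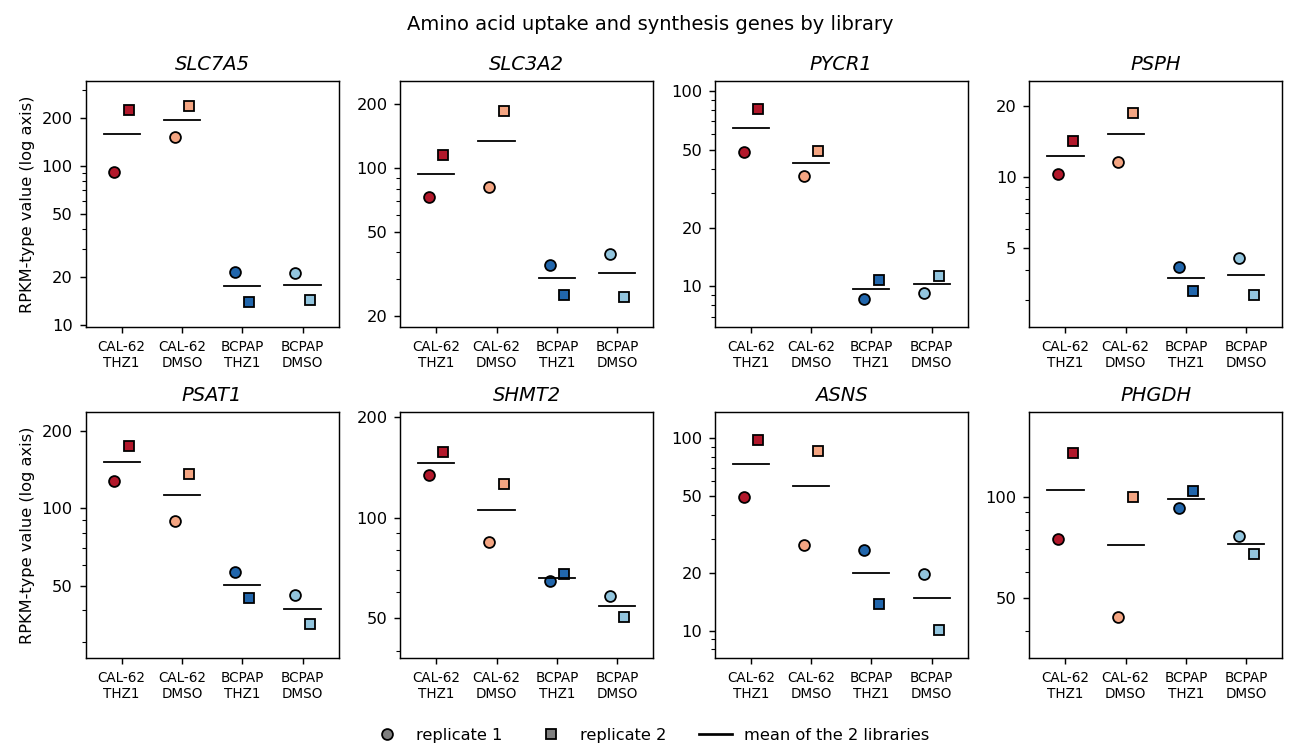
RPKM-type values on log axes for 8 uptake and synthesis genes in each of the 8 libraries; circles are replicate 1, squares replicate 2 and bars the mean of both. SLC7A5 lies between 91.2 and 236 in CAL-62 libraries, against 13.9 to 21.4 in BCPAP libraries, and PHGDH overlaps between the lines.

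Synthesis enzymes were uneven between the lines. PYCR1 was 36.6 and 49.3 in CAL-62 DMSO cells, against 9.27 and 11.3 in BCPAP DMSO cells, a log2 difference of 1.96 ± 0.307 (adjusted p = 0.00870, limma). PSPH was 11.6 and 18.6 in CAL-62, against 4.53 and 3.14 in BCPAP, a difference of 1.72 ± 0.315 (adjusted p = 0.0140, limma). PSAT1 was 89.3 and 136 in CAL-62, against 46.0 and 35.3 in BCPAP, a difference of 1.44 ± 0.294 (adjusted p = 0.01999, limma). The lines did not overlap for these 3 enzymes nor for SHMT2, which was 84.5 and 126 in CAL-62, against 58.5 and 50.4 in BCPAP (0.92 ± 0.245, adjusted p = 0.0445, limma). The differences were 1.73 for PYCR1, 1.38 for PSPH, 1.12 for PSAT1 and 0.62 for SHMT2 without replicate 2 of the CAL-62 cells. PHGDH, the enzyme one step before PSAT1, was 44.0 and 99.6 in CAL-62, against 76.7 and 67.9 in BCPAP. Its lines overlapped, and its difference was -0.11 ± 0.421 (adjusted p = 0.884, limma); it was 0.34 with ribosomal protein genes as the reference and -0.71 without replicate 2 of the CAL-62 cells. GPT2, the mitochondrial alanine aminotransferase, was 20.2 and 47.3 in CAL-62, against 8.06 and 8.56 in BCPAP, with a difference of 1.79 ± 0.515 (adjusted p = 0.0564, limma). ASNS was 27.8 and 85.5 in CAL-62, against 19.6 and 10.1 in BCPAP, without overlap and with a difference of 1.73 ± 0.605 (adjusted p = 0.0954, limma). Without that library the differences were 1.18 for GPT2 and 0.92 for ASNS. CTH and MTHFD1L were lower in CAL-62 without passing the test, with differences of -0.81 and -0.41.

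Among the stress genes, STC2 ran against the others. It was 9.92 and 54.5 in CAL-62 DMSO cells, against 150.3 and 199.6 in BCPAP DMSO cells, a log2 difference of -2.81 ± 0.770 (adjusted p = 0.0488, limma). The adjusted p ran from 0.00066 to 0.187 over the alternatives, and the difference was -4.00 without replicate 2 and -1.62 without replicate 1 of the CAL-62 cells. CHAC1 was 9.53 and 100.0 in CAL-62, against 3.66 and 1.74 in BCPAP, without overlap. Its difference was 3.20 ± 0.904 (adjusted p = 0.0539, limma), or 1.55 without replicate 2 of the CAL-62 cells. DDIT4, CEBPB and TRIB3 had differences of 1.69, 1.22 and 0.83 with overlapping lines; without that library they were -0.79, -0.25 and -0.39. ATF4 was 121 and 219 in CAL-62, against 101 and 97.4 in BCPAP, and DDIT3 was 8.89 and 47.3 in CAL-62, against 8.06 and 5.81 in BCPAP. Neither overlapped between the lines, and the differences were 0.71 ± 0.381 and 1.48 ± 0.651 (adjusted p = 0.239 and 0.162, limma). They were 0.27 for ATF4 and 0.32 for DDIT3 without replicate 2 of the CAL-62 cells.

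The levels of the members under DMSO spanned the expressed range in both lines. In CAL-62, SLC7A5 and ATF4 had the highest mean values, 193 and 170.2, and CTH the lowest, 1.83, where the median of all listed genes was 9.93. In BCPAP the highest means were 175 for STC2 and 103 for SLC38A2, and the lowest 1.34 for ALDH1L2 and 2.70 for CHAC1, where the median gene was at 9.54. ATF4 had 97.4 to 219 across the DMSO libraries of both lines.

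Other genes of the pathway were read from lists of its sensors and further targets. Of 9 genes for eIF2-alpha kinases, eIF2 subunits and eIF2 phosphatase subunits, 0 were called after THZ1 in CAL-62 or BCPAP or between the lines (limma). The shares of all genes called were 4.62%, 0% and 14.4%. At an unadjusted p under 0.05 there were 3 in CAL-62, 0 in BCPAP and 1 between the lines, where 30.1%, 4.01% and 32.1% of all genes passed. The 12 aminoacyl-tRNA synthetases, which charge tRNAs and are partly under ATF4, had positive log2 differences in 11 of 12 genes in each line with the deposited scaling, in 9 of 12 in each line with upper-quartile scaling, and against ribosomal protein genes in 0 of 12 in CAL-62 and 5 of 12 in BCPAP. Their medians were 0.35 in CAL-62 and 0.17 in BCPAP, and 0 were called after THZ1, against 4.62% and 0% of all genes. Between the lines 1 of 12 was called higher in CAL-62 and 2 lower, against 6.52% and 7.86% of all genes. Under DMSO the isoleucine enzyme IARS was 104 and 85.4 in CAL-62, against 56.8 and 41.4 in BCPAP, a difference of 0.95 ± 0.236 (adjusted p = 0.0363, limma). The leucine enzyme LARS was 35.8 and 25.0 in CAL-62, against 73.0 and 70.3 in BCPAP (-1.23 ± 0.209, adjusted p = 0.0115, limma), and the tryptophan enzyme WARS was also lower in CAL-62 (-1.39 ± 0.369, adjusted p = 0.0445, limma).

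Among other ATF4 targets, 0 of 19 in CAL-62 and 0 of 18 in BCPAP were called after THZ1, against 4.62% and 0% of all genes tested. Between the lines 3 of 18 were called lower in CAL-62, against 7.86% of all genes, and 0 higher, against 6.52%. These were TXNIP, an arrestin-family regulator of glucose uptake (-2.36 ± 0.510, adjusted p = 0.0238, limma), the lipoprotein receptor VLDLR (-1.66 ± 0.413, adjusted p = 0.0370, limma) and the endoplasmic reticulum oxidase ERO1L (-1.23 ± 0.286, adjusted p = 0.0296, limma). Of further serine, folate, glutamate and proline genes, 0 of 11 in CAL-62 and 0 of 12 in BCPAP were called after THZ1, against the same 4.62% and 0%. Between the lines 3 of 11 were called higher in CAL-62, against 6.52% of all genes, and 1 lower, against 7.86%. The aspartate aminotransferases GOT1 and GOT2 and the glutamine synthetase GLUL had differences of 1.00, 0.94 and 0.98.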

How the data were processed

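RNA-seq was analysed from 8 libraries, 2 for each of 4 groups. The authors deposited 1 RPKM-type value per gene and library; the unit was inferred from the values, and the tables hold only genes with a DMSO mean above about 1. Per the submitters' processing notes, Bowtie2, DESeq2 and hg19 were used, with roles and versions not given in the sources used here. A whole gene length and library total gave whole reads, within 0.02 reads, for 12714 of 12715 genes (99.992%), and reads in listed genes were 16680750 to 19987389 per library. The library totals behave like size factors, so a change in total RNA per cell would not show.

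The main test was limma 3.58.1 in R 4.3.3, with the variance trended on mean level, on log2(value + 1), for genes with a mean of at least 1, and 1 mean per group. All 8 libraries shared 1 fit, and genes of 1 line only used its 4 libraries. This scale understates the change of low genes. P-values were two-sided with Benjamini-Hochberg adjustment over all genes tested. The limma fit of the line comparison used median-of-ratios factors over all 8 libraries, and its overlaps used the deposited values. The scripts were tested on simulated data. Alternatives were a pseudocount of 0.1, no filter, a minimum mean of 5, 3 other scalings, a replicate block, each line alone, and each library left out.

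The members and all lists were chosen with earlier results of these data known. Values in every library are given for ATF4, DDIT3, ASNS, called members and the 5 members with the largest THZ1 difference per line at a mean of at least 5; other members with values were added for their role. Promoters are RefSeq windows on GRCh38.p14 and were not set against hg19 coordinates. Results for some genes of the wider lists are not reported here.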

Additional observations from a re-analysis of the deposited data

How the results depend on the processing

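The count of members called lower or higher after THZ1 in CAL-62, 0 by limma, was 2 with a pseudocount of 0.1 (4.81% of all genes), 2 with upper-quartile scaling (6.4%) and 10 against ribosomal protein genes (27.5%). It ran from 0 to 4 with each library left out, and was 4 (CEBPB, CHAC1, DDIT3 and DDIT4) without replicate 1 of the CAL-62 DMSO cells, where 9 of 11313 genes were called (0.0796%); the cause was not tested. With the replicate block it was 13, 6 higher and 7 lower, against 40.2% of all genes. With CAL-62 fitted on its own 4 libraries it was 0, against 0% of 11240 genes. The meaning of the replicate numbers is not given in the labels, and with 2 pairs per comparison they are taken as numbers only; deviations of same-numbered libraries correlated across genes at r = 0.462 in CAL-62 and 0.778 in BCPAP, and at 0.432 to 0.526 between groups of different lines. In BCPAP and for the interaction the count was 0 in all settings run. The 7 calls between the lines became 12 against ribosomal protein genes (13.4% of all genes) and 10 with the block (28.1%), and ran from 1 to 11 with each library left out. With a library left out, the share of all genes called changed too, both in CAL-62 and between the lines. Counts of called members from those fits are therefore not comparable with each other or with the main count. With the block the median line difference of the members was 0.46 with 22 of 30 positive, in place of 0.94 with 24. Against ribosomal protein genes the THZ1 differences in CAL-62 turned to -0.44 for ASNS, -0.49 for CTH, -0.36 for PHGDH, -0.52 for PSAT1, -0.40 for PYCR1 and -0.47 for SHMT2, and the line difference of PHGDH to 0.34; with upper-quartile scaling that of CTH in CAL-62 was -0.0057. With each library left out in turn, differences changed sign for 13 of 30 members in CAL-62, 18 of 31 in BCPAP and 7 of 30 between the lines. Among the 17 members followed singly, those that changed sign in CAL-62 ran from -0.29 to 1.30 (ASNS), -0.32 to 0.53 (CTH), -0.58 to 0.056 (PSPH), -1.01 to 0.18 (SLC3A2) and -1.04 to 0.24 (SLC7A5). In BCPAP they ran from -0.044 to 0.85 (ASNS), -0.29 to 0.12 (ATF4), -0.69 to 0.072 (CHAC1), -0.62 to 0.43 (DDIT4), -0.24 to 0.18 (PSPH), -0.22 to 0.065 (PYCR1), -0.40 to 0.27 (SLC3A2) and -0.31 to 0.27 (SLC7A5). Between the lines they ran from -0.25 to 2.68 (CEBPB), -0.79 to 4.17 (DDIT4), -0.71 to 0.49 (PHGDH) and -0.39 to 2.06 (TRIB3). Of the other values under the alternatives, 700 kept their direction and side of the threshold, 39 passed it and 24 no longer did. Many of these could not change direction, since leaving out a library outside the comparison leaves the difference as it was. The block and the fit of each line alone also leave the THZ1 differences as they were, so the count is not a measure of stability. The planned negative binomial test on recovered reads was run, but its values are not given, since the deposited unit is RPKM-type. Its calls come from an earlier run that was not repeated with the final results, and they stand here without values or shares of all genes. In that run the test called CHAC1 and DDIT3 lower after THZ1 in CAL-62. Between the lines it called CHAC1 and GPT2 higher and did not call STC2, so its calls differed from limma's. A lone library left in a group was assumed to vary like the other groups. Precision is limited by 2 libraries per group rather than by reads, except for genes such as CHAC1 under THZ1.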
